A study of Mus musculus with 12 samples.

Results

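The Kupffer cell and macrophage genes described here are 32 listed genes, taken by gene symbol from the platform annotation, out of 18820 genes with a probe set of exactly 1 symbol. All 32 were measured, each by 1 such probe set. RNA from 12 samples was read on 1-colour whole-transcript arrays, 3 arrays in each of 4 groups: WT whole liver, JNKΔhepa whole liver, WT primary hepatocytes and JNKΔhepa primary hepatocytes. Primary hepatocytes are the main functional cells of the liver, prepared from the organ. The WT mice were Jnk1f/fJnk2+/+ littermates, in which Jnk1 (Mapk8) is floxed but intact. In JNKΔhepa mice Jnk1 is deleted in hepatocytes by Albf-Cre, a Cre recombinase driven by the albumin promoter and alpha-fetoprotein enhancer, and Jnk2 (Mapk9) is deleted in the whole animal, Kupffer cells included. All were untreated males on a C57BL/6 background, 7 to 8 weeks old, fed standard chow, and per the labels' mouse numbers 6 mice, 3 of each genotype, each gave a liver and a hepatocyte sample. How the hepatocytes were purified is not given in the sources used here.

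Kupffer cells are the resident macrophages of the liver. They sit inside the sinusoids, where they clear bacteria, immune complexes, dying cells and aged red cells from portal blood and return iron to the circulation. Their identity is set by the PU.1 family of transcription factors together with signals from neighbouring endothelial cells, stellate cells and hepatocytes, and they express C1q, scavenger receptors and Fc receptors at high levels. In an array of whole liver, or of isolated hepatocytes, the RNA of these genes can come from the macrophages present. In such bulk samples, fewer cells of a type and less RNA per cell cannot be told apart.

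Promoter sequence was looked up for the members, because macrophage genes are known for binding PU.1 at purine-rich sites. A RefSeq table (build GRCm38.p6) held an entry for 24 of the 32 genes and none for Msr1, Siglec1, C1qa, Tyrobp, Cd14, Slc40a1, Csf1r and Adgre1. The 250 bases before each start were searched on both strands for GAGGAA (the PU box), GGAAGT (a wider ETS family site) and TGANTCA (the AP-1 site, bound by the JNK substrate c-Jun); the first 2 can overlap each other in GAGGAA followed by GT. A PU box was found in 14 of the 24 genes (58.3%), against 25.9% of 27025 genes in the table. The ETS site was found in 13 (54.2%, against 22.2%) and the AP-1 site in 3 (12.5%, against 7.82%). The members with an AP-1 match were Folr2, Cd68 and Cybb. The sequences below are those of C1qb and Fcna, the 2 members lower past the threshold in JNKΔhepa hepatocytes, of the Kupffer cell receptor gene Vsig4, and of Mpeg1, the member with the largest value in the other direction; capitals mark every match to the 3 motifs, written on the strand of the gene, so that a match on the opposite strand appears as its reverse complement.
C1qb, chr4:136886201-136886450, minus strand: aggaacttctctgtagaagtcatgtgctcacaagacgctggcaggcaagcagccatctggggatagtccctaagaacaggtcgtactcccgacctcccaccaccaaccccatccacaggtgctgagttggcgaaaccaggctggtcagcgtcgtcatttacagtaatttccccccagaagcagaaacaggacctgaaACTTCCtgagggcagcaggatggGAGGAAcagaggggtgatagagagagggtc
Fcna, chr2:25627975-25628224, minus strand: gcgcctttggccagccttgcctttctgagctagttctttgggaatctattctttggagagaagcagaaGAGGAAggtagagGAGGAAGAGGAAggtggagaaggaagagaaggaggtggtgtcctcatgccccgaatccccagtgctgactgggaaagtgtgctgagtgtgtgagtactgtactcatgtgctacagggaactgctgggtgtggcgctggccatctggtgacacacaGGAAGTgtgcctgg
Vsig4, chrX:96293439-96293688, minus strand: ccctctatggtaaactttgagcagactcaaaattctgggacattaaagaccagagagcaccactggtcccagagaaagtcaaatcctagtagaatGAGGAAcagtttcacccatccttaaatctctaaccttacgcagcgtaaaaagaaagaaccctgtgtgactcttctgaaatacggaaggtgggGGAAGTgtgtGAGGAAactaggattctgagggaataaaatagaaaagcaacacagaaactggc
Mpeg1, chr19:12460520-12460769, plus strand: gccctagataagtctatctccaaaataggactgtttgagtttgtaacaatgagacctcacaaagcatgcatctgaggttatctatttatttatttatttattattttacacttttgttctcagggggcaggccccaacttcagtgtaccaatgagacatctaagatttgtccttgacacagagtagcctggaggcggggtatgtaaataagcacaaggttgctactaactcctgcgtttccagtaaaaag
The C1qb window held a PU box that starts 30 bases before the gene's start and an ETS site on the opposite strand. The Fcna window held 3 PU boxes, 2 of them back to back, and an ETS site, and the Vsig4 window held 2 PU boxes and an ETS site. The Mpeg1 window held no match, which says only that these letters are not in this window. The matches are a description of sequence, and no binding was measured.

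Values are on the log2 scale of the deposited table, where a step of 1 is a doubling of the array reading. The table holds no detection calls, so a reading below the median of all probe sets on its array is called dim here: a fold against a group with any dim array is written as at least N-fold, and where arrays of both groups are dim the size is called not exact. Aif1, a calcium-binding protein of macrophages, was dim on all 12 arrays, Cd14 on 9, Marco on 8, Spic on 6, Fcgr1 on 4 and Fcgr3 on 1. The other members, among them the defining Kupffer cell markers Clec4f, Vsig4, Cd5l and Timd4, were dim on 0 arrays. Mapk9 read 8.59 to 8.69 in WT liver against 2.33 to 3.02 in JNKΔhepa liver, and 7.74 to 8.10 against 2.29 to 2.62 in hepatocytes. Mapk8 read 6.37 to 6.40 against 5.93 to 6.07 in liver and 5.51 to 5.66 against 4.95 to 5.01 in hepatocytes; the labels do not say whether its probe set lies in the deleted part. Arrays of 1 group had pairwise correlations of 0.9865 to 0.9928 over all probe sets. The median probe set read 4.09 to 4.12 on liver arrays but 3.22 to 3.28 on hepatocyte arrays, so the tissues appear to have been normalised separately, and levels set across tissues depend on that.

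**Figure D1:**
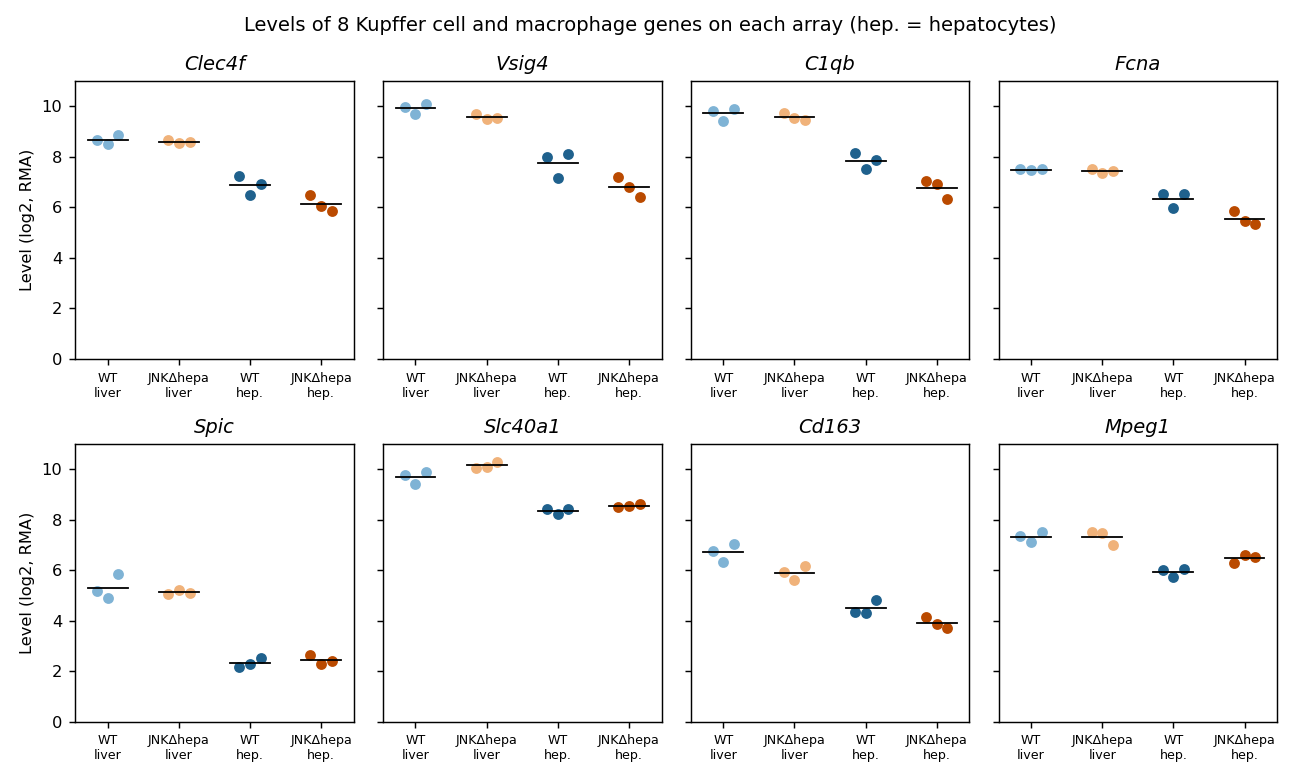
Log2 level of 8 members (Clec4f, Vsig4, C1qb, Fcna, Spic, Slc40a1, Cd163 and Mpeg1) as deposited, 1 panel per gene, with 1 point per array and a line at the mean of each of the 4 groups. In every panel the hepatocyte arrays lie below the liver arrays; C1qb and Fcna are lower in JNKΔhepa than in WT hepatocytes, and Mpeg1 is higher there.

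In whole liver, the question was whether the JNKΔhepa genotype changes the level of these genes. None of the 32 passed the threshold (limma adjusted p under 0.05), where 0.925% of all genes did, in either direction. At an unadjusted limma p under 0.05 there were 2 members, Cd163 and Slc40a1, where 12.5% of all genes were, so the members' count is under that background. The members' median log2 difference was −0.06 (JNKΔhepa minus WT), against 0.0155 over all genes, with 22 members below 0 and 10 above. That count rested on single WT arrays: without WT liver replicate 3 the median was 0.08 with 9 members below 0, and without WT liver replicate 2 it was −0.19 with 27 below 0.

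Cd163, the macrophage receptor for haemoglobin bound to haptoglobin, read 6.76, 6.34 and 7.04 in WT liver and 5.91, 5.61 and 6.16 in JNKΔhepa liver. Every JNKΔhepa liver was below every WT liver. The log2 difference was −0.82 (1.77-fold, SE 0.198, limma adjusted p = 0.0799), short of the threshold. It passed without WT liver replicate 2 (−1.01, limma adjusted p = 0.0485) and with array weights (−0.79, limma adjusted p = 0.0389). In hepatocytes Cd163 read 4.35, 4.29 and 4.81 in WT against 4.15, 3.86 and 3.70 in JNKΔhepa, again without overlap, a log2 difference of −0.58 (SE 0.198, limma adjusted p = 0.224). It was the member with the largest negative value in liver, and the only one whose 3 JNKΔhepa livers all lay below the 3 WT livers, an order that 7.57% of all genes showed.

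Slc40a1, which encodes ferroportin, the exporter that returns iron from macrophages and hepatocytes to blood, went the other way. It read 9.78, 9.41 and 9.87 in WT liver and 10.05, 10.08 and 10.29 in JNKΔhepa liver. The log2 difference was 0.45 (1.37-fold, SE 0.118, limma adjusted p = 0.103), and it was called only with array weights (0.46, limma adjusted p = 0.0493). The JNKΔhepa livers were all above the WT livers, as for 12.9% of all genes and for no other member. In hepatocytes Slc40a1 read 8.41, 8.23 and 8.41 in WT against 8.49, 8.55 and 8.62 in JNKΔhepa, a log2 difference of 0.20 (SE 0.118, limma adjusted p = 0.551). Among the resident Kupffer cell genes the liver groups overlapped for each of the 5. Clec4f, a galactose-binding lectin found on Kupffer cells, read 8.67, 8.49 and 8.86 in WT liver and 8.66, 8.56 and 8.59 in JNKΔhepa liver (log2 difference −0.07, 95% confidence interval −0.47 to 0.33). Vsig4, the receptor for complement fragment C3b, read 9.96, 9.69 and 10.09 against 9.71, 9.51 and 9.55 (−0.32, interval −0.83 to 0.18).

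The same question was put to the hepatocyte samples, where most of these genes still read above the array median. There, 28 of the 32 members were lower in JNKΔhepa on average and 4 were higher. The median log2 difference was −0.69, against −0.0018 over all genes. C1qb and Fcna fell past the threshold, where 0.473% of all genes fell and 0.367% rose, and 0 members rose. At an unadjusted limma p under 0.05, 23 members were lower, where 6.71% of all genes were, and 1 was higher. Of all 18820 genes, 2363 were under that limma p in either direction, 1263 of them lower. In 7 members (Clec4f, Cd163, C1qb, Cfp, Fcna, Fcer1g and Adgre1) the highest JNKΔhepa array was under the lowest WT array, as for 7.32% of all genes, and in 2 (Slc40a1 and Mpeg1) the order was reversed, as for 7.36%. The count of called members depended on single arrays. It was 15 without WT hepatocyte replicate 2, 9 without JNKΔhepa hepatocyte replicate 1, 3 without WT liver replicate 3, and 0 without WT hepatocyte replicates 1 or 3 or JNKΔhepa hepatocyte replicates 2 or 3. The calls over all genes moved in step: from 158 of 18820, in both directions, to 387, 315 and 168 in the first 3 of these settings and to 61 to 80 where 0 members passed. The members' count was also 0 when the 6 hepatocyte arrays were fitted alone, with 77 over all genes (limma adjusted p = 0.0928 for C1qb and 0.168 for Fcna). With each hepatocyte or liver array left out in turn, 28 members were below 0 and the median ran from −0.90 to −0.52.

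**Figure D2:**
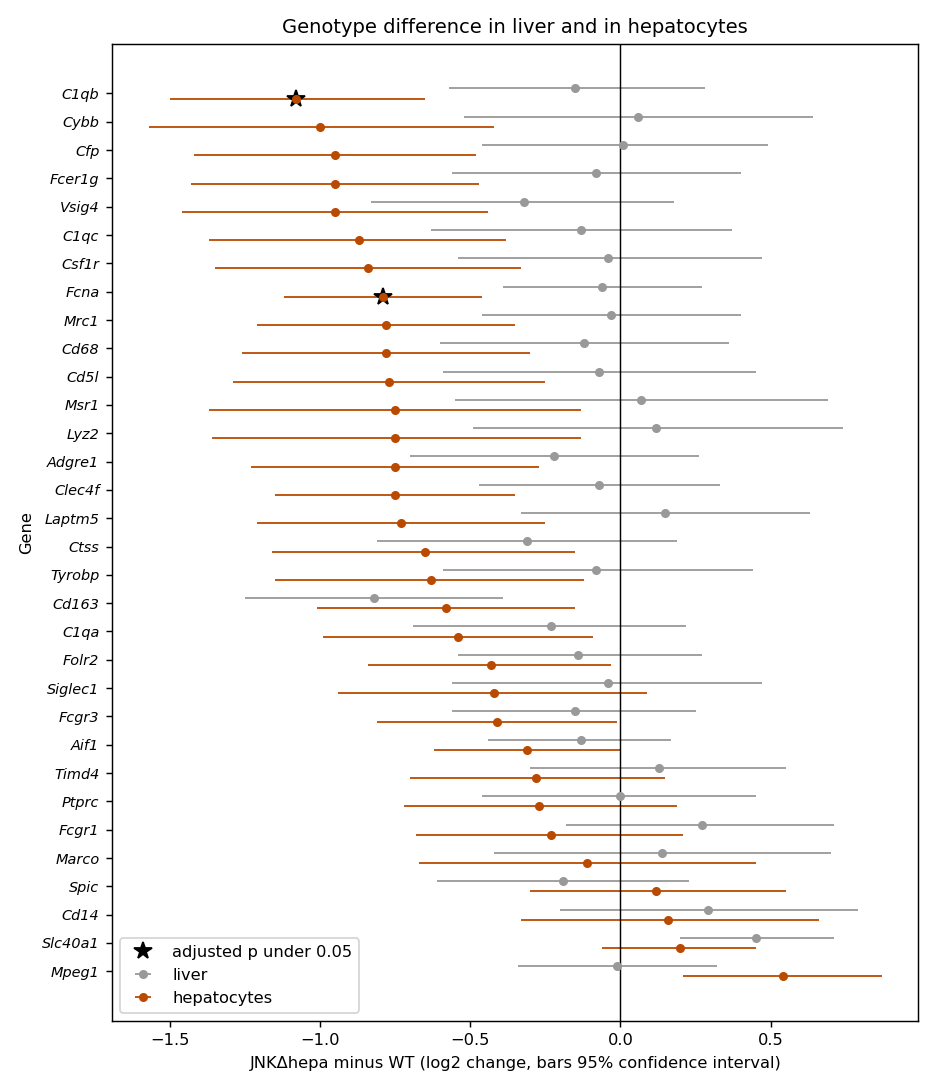
Log2 difference, JNKΔhepa minus WT, with its 95% confidence interval, for each of the 32 members in liver and in hepatocytes, with a star on the 2 past the threshold. The liver values lie around 0 apart from Cd163 (−0.82) and Slc40a1 (0.45), while 28 hepatocyte values lie below 0, from −1.08 for C1qb, and Mpeg1 (0.54) stands on the other side.

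The 5 complement and lectin pathway genes had a median of −0.87 in hepatocytes, the lowest of the 7 roles. C1qb, a chain of the C1q molecule that binds immune complexes and dying cells, read 8.14, 7.52 and 7.88 in WT hepatocytes and 7.05, 6.93 and 6.33 in JNKΔhepa hepatocytes. All 3 JNKΔhepa arrays were below the lowest WT array. It fell 2.11-fold (log2 difference −1.08, SE 0.196, limma adjusted p = 0.0225). In whole liver of the same mice C1qb read 9.82, 9.43 and 9.91 in WT against 9.72, 9.52 and 9.47 in JNKΔhepa, which overlapped. Fcna, a ficolin that recognises sugars on microbes, read 6.52, 5.98 and 6.52 in WT hepatocytes and 5.86, 5.46 and 5.33 in JNKΔhepa hepatocytes, a fall of 1.73-fold (log2 difference −0.79, SE 0.152, limma adjusted p = 0.0272). In liver Fcna stayed within 7.37 to 7.51 on all 6 arrays. The fit shares a single spread over the 4 groups, so the SE and intervals of Fcna draw on its tighter liver arrays. Its SD was 0.0205 in WT and 0.0665 in JNKΔhepa liver, against 0.313 and 0.274 in hepatocytes. Both calls were lost without WT hepatocyte replicate 1 (limma adjusted p = 0.108 for C1qb and 0.129 for Fcna) or replicate 3 (0.0856 and 0.115), and without JNKΔhepa hepatocyte replicate 2 (0.0599 and 0.123) or replicate 3 (0.0748 and 0.13). An antisense gene, Fcnaos, overlaps Fcna in the RefSeq table.

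The other C1q chains, encoded beside C1qb on chromosome 4, had negative values as well. C1qc read 6.78, 5.90 and 6.50 in WT hepatocytes and 5.94, 5.46 and 5.16 in JNKΔhepa hepatocytes (log2 difference −0.87, SE 0.229, limma adjusted p = 0.112), overlapping because WT replicate 2 lay below JNKΔhepa replicate 1. C1qa read 6.14, 5.61 and 6.16 against 5.91, 5.06 and 5.32 (−0.54, SE 0.209, limma adjusted p = 0.302). Cfp, properdin, which stabilises the alternative pathway convertase, read 6.86, 6.09 and 6.25 against 5.70, 5.44 and 5.21 (−0.95, SE 0.218, limma adjusted p = 0.0667) and did not overlap. The 5 genes of the group had liver values from −0.23 to 0.01.

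The 5 resident Kupffer cell genes ran from −0.95 to −0.28 in hepatocytes, and 0 passed. Clec4f read 7.23, 6.48 and 6.92 in WT hepatocytes and 6.48, 6.05 and 5.86 in JNKΔhepa hepatocytes (log2 difference −0.75, SE 0.184, limma adjusted p = 0.088). JNKΔhepa replicate 1 and WT replicate 2 read the same to 2 decimals, with the JNKΔhepa array lower beyond them, so the groups touched without crossing. Vsig4 read 8.01, 7.17 and 8.11 against 7.22, 6.82 and 6.41 (−0.95, SE 0.235, limma adjusted p = 0.0901), with JNKΔhepa replicate 1 above WT replicate 2. Cd5l, a secreted protein of tissue macrophages, read 6.62, 5.60 and 6.37 against 5.69, 5.28 and 5.32 (−0.77, limma adjusted p = 0.182). Folr2, a folate receptor of resident macrophages, read 5.82, 4.95 and 5.47 against 5.03, 4.94 and 4.97 (−0.43, limma adjusted p = 0.362). Timd4, a receptor for phosphatidylserine on dying cells, was high on 1 array only: hepatocyte arrays read 5.16, 4.37 and 4.34 in WT against 4.44, 4.27 and 4.32 in JNKΔhepa (−0.28, SE 0.196, limma adjusted p = 0.632).

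Among the scavenger and lectin receptors, Mrc1, the mannose receptor, read 7.00, 6.57 and 7.19 in WT hepatocytes and 6.63, 5.78 and 6.00 in JNKΔhepa hepatocytes (log2 difference −0.78, SE 0.198, limma adjusted p = 0.0973). Msr1, the class A scavenger receptor, read 5.68, 5.04 and 5.89 against 5.50, 4.81 and 4.06 (−0.75, SE 0.288, limma adjusted p = 0.295), and its JNKΔhepa arrays had the largest SD of any member in that group (0.721). Siglec1, a sialic acid receptor, had a value of −0.42 (limma adjusted p = 0.526). Marco, a scavenger receptor for bacteria, had a value of −0.11, not exact. In liver Marco was bright on 1 WT array: it read 3.52, 3.73 and 4.86 in WT against 4.16, 4.26 and 4.11 in JNKΔhepa.

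Of the Fc receptor genes and their adaptors, Fcer1g, the gamma chain that carries the signal of several Fc receptors, read 6.87, 5.89 and 6.42 in WT hepatocytes and 5.64, 5.44 and 5.26 in JNKΔhepa hepatocytes, without overlap (log2 difference −0.95, SE 0.222, limma adjusted p = 0.0723). Tyrobp, the adaptor DAP12, read 5.01, 4.35 and 4.66 against 4.55, 3.88 and 3.70 (−0.63, SE 0.237, limma adjusted p = 0.28). The Fc receptor genes themselves were nearer to the array median. Fcgr3 had a value of −0.41 (at least 1.33-fold, limma adjusted p = 0.387) and Fcgr1, the high-affinity receptor, −0.23, not exact. Cd14, the co-receptor for bacterial lipopolysaccharide, read 2.47, 2.26 and 2.17 in WT against 2.31, 2.59 and 2.49 in JNKΔhepa hepatocytes, all dim (0.16, not exact). Spic, the transcription factor of iron-recycling macrophages, was dim on all 6 hepatocyte arrays, from 2.16 to 2.65, and gives no usable size there.

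Csf1r, the receptor for the growth factor that macrophages need to survive, read 6.78, 5.95 and 6.77 in WT hepatocytes and 6.06, 5.57 and 5.34 in JNKΔhepa hepatocytes (log2 difference −0.84, SE 0.234, limma adjusted p = 0.132). Adgre1, the F4/80 antigen, read 5.74, 5.13 and 5.87 against 5.04, 4.71 and 4.75, without overlap (−0.75, SE 0.221, limma adjusted p = 0.158). Laptm5, a lysosomal protein of blood cells, had a value of −0.73 (limma adjusted p = 0.17) and Ptprc, the leukocyte antigen CD45, one of −0.27 (limma adjusted p = 0.678). Aif1 had a value of −0.31, not exact.

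The 4 lysosomal, bactericidal and oxidase genes were all below 0 in hepatocytes (median −0.77), and 0 passed. Cybb, the catalytic subunit of the phagocyte NADPH oxidase, read 6.25, 5.15 and 5.93 in WT hepatocytes and 5.19, 4.56 and 4.59 in JNKΔhepa hepatocytes (1.99-fold lower, SE 0.267 on the log2 scale, limma adjusted p = 0.118). The groups overlapped only because WT replicate 2 lay below JNKΔhepa replicate 1. Cd68, a glycoprotein of macrophage lysosomes, had a value of −0.78 (limma adjusted p = 0.137), Ctss, the protease cathepsin S, −0.65 (limma adjusted p = 0.254) and Lyz2, lysozyme of myeloid cells, −0.75 (limma adjusted p = 0.29). Lyz2 has a closely similar neighbour, Lyz1, and cross-hybridisation between them was not tested.

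Mpeg1, which encodes perforin-2, a pore-forming protein of phagocytes, was higher in JNKΔhepa hepatocytes. It read 6.01, 5.72 and 6.05 in WT against 6.29, 6.60 and 6.50 in JNKΔhepa, without overlap (log2 difference 0.54, 1.45-fold, SE 0.152, limma adjusted p = 0.136). In liver it read 7.36, 7.10 and 7.49 in WT against 7.49, 7.45 and 6.98 in JNKΔhepa, a difference of −0.01 (SE 0.152, limma adjusted p = 0.992). The 2 JNKΔhepa hepatocyte arrays that read lowest for most members, replicates 2 and 3, read highest for Mpeg1.

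The members varied together from array to array within hepatocytes. Taking each gene's distance from its mean over the 6 hepatocyte arrays, the median over the 32 members was 0.53, −0.12 and 0.52 in WT replicates 1, 2 and 3 and −0.03, −0.46 and −0.51 in JNKΔhepa replicates 1, 2 and 3. WT replicate 2 thus lay below JNKΔhepa replicate 1, and the genotypes overlapped in this median. WT replicate 2 was the lowest of its group in 29 of 32 genes, JNKΔhepa replicate 1 was the highest of its group in 25, and JNKΔhepa replicate 3 was the lowest of all 6 in 17. In liver the medians were 0.03, −0.24 and 0.31 in WT against 0.12, −0.06 and −0.12 in JNKΔhepa, with WT replicate 3 the highest of all 6 in 27 genes and WT replicate 2 the lowest of its group in 27. The 32 genes are read from the same 12 samples and are not replicates of the genotype.

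**Figure D3:**
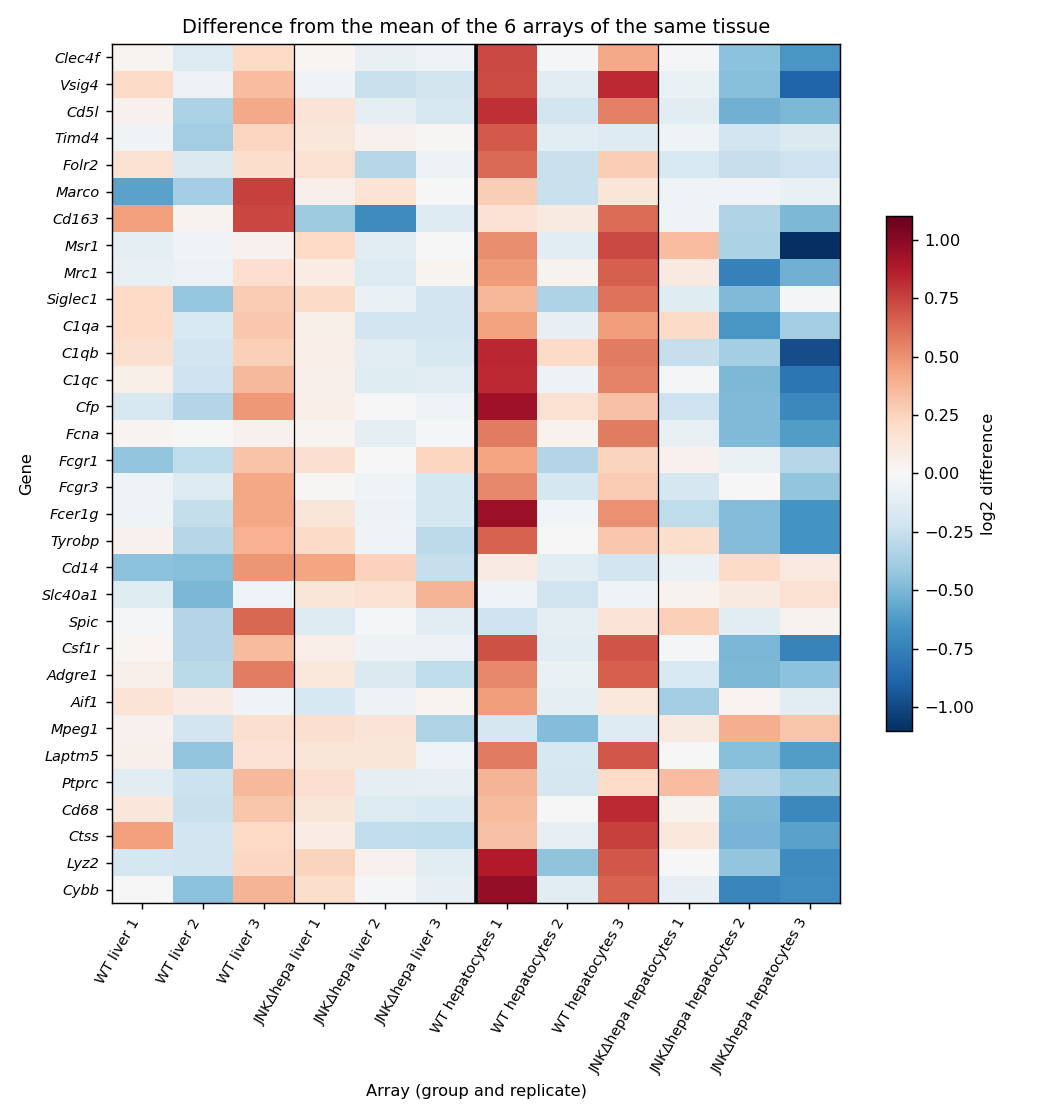
Each member's log2 difference from its mean over the 6 arrays of the same tissue, by array, red above and blue below. In hepatocytes WT replicates 1 and 3 are red for most genes (median 0.53 and 0.52), JNKΔhepa replicates 2 and 3 are blue (−0.46 and −0.51), and WT replicate 2 and JNKΔhepa replicate 1 lie between; Mpeg1 runs the other way.

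Endothelial and stellate cell markers moved with the same hepatocyte arrays. The 18 sinusoidal endothelial genes had median distances of 0.39, −0.02 and 0.35 in WT and 0.07, −0.38 and −0.41 in JNKΔhepa hepatocytes. All 18 had genotype values below 0 there (median −0.52, 0 called), with Cdh5, the endothelial cadherin, at −0.60 (limma adjusted p = 0.0568), against a median of 0.11 in liver. The summed linear level of the endothelial list ran from 2420 to 3210 in WT and from 1850 to 2620 in JNKΔhepa hepatocytes, that of the 32 members from 1710 to 2700 and from 1390 to 1810. The 16 stellate cell genes had medians of 0.21, 0.04 and 0.24 against 0.03, −0.25 and −0.25, 15 had genotype values below 0 (median −0.27), and their summed level ran from 691 to 897 and from 481 to 649. In this list Ecm1, which encodes an extracellular matrix protein, fell by 0.71 on the log2 scale in hepatocytes (limma adjusted p = 0.01). That call was lost without WT hepatocyte replicate 3 (limma adjusted p = 0.0516) or JNKΔhepa hepatocyte replicates 2 (0.0564) or 3 (0.0606), and in the 6 hepatocyte arrays alone (0.0807). The 10 cholangiocyte genes, 8 of them dim on every array of each group, had medians of 0.02, 0.01 and −0.04 on WT and 0.07, −0.03 and −0.01 on JNKΔhepa hepatocyte arrays, with 3 genotype values below 0 (median 0.05, 0 called) and summed levels of 101 to 108 and 103 to 109. In liver 2 of them, Krt23, a keratin, and Muc1, a mucin, rose (log2 differences 0.75 and 0.64, not exact; limma adjusted p = 0.0102 and 0.0195). Both calls were lost without WT liver replicate 1 (limma adjusted p = 0.0585 and 0.0837) or JNKΔhepa liver replicate 1 (0.0562 and 0.0705), and that of Muc1 also without WT liver replicate 2 (0.0648) or JNKΔhepa liver replicate 2 (0.08) and in the 6 liver arrays alone (0.0927). Both were also lost with the replicate-number block (limma adjusted p = 0.0594 and 0.054). The 16 hepatocyte genes had medians of −0.08, −0.01 and 0.00 on WT and 0.02, 0.07 and 0.04 on JNKΔhepa hepatocyte arrays. Of these genes, 2 had genotype values below 0 in hepatocytes (median 0.04, 0 called). Their summed level ran from 59500 to 64000 in WT and from 63800 to 66200 in JNKΔhepa hepatocytes. The part of the carry-over of other cells in the genotype values of the members was not tested.

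**Figure D4:**
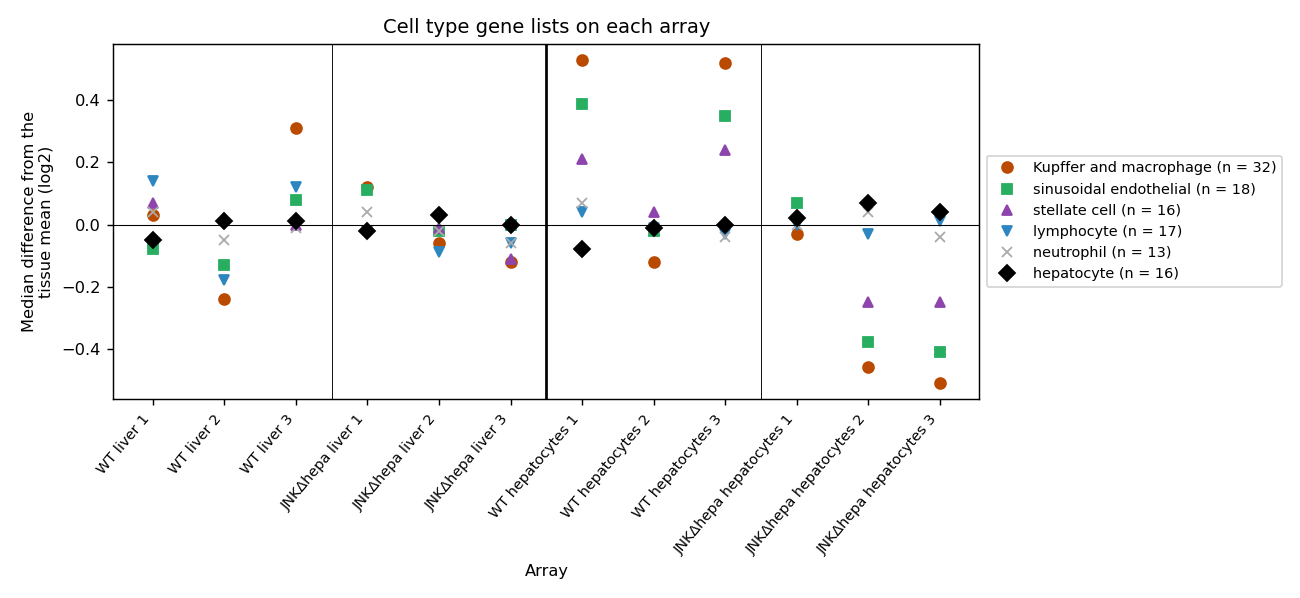
Median log2 difference from the tissue mean on each array for the 32 members and for 5 lists of cell type genes, with arrays by group and replicate. On the hepatocyte arrays the macrophage, endothelial and stellate medians are high in WT replicates 1 and 3. They are low in JNKΔhepa replicates 2 and 3. The hepatocyte list runs from −0.08 to 0.00 in WT and from 0.02 to 0.07 in JNKΔhepa.

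Neutrophil and lymphocyte lists gave little signal in hepatocytes. All 13 neutrophil genes and 16 of the 17 lymphocyte genes were dim on every array of both hepatocyte groups, and 0 of either list passed in a genotype comparison. Their summed levels were 55.6 to 58.4 in WT and 55.3 to 57.5 in JNKΔhepa hepatocytes for neutrophils, and 81.5 to 85.7 and 83.2 to 84.7 for lymphocytes. Of 15 monocyte and recruited macrophage genes, 12 were dim on every array of either hepatocyte group and 0 passed. The summed level of this list, 2550 to 3090 in WT and 3070 to 3150 in JNKΔhepa hepatocytes, was nearly all Fn1, fibronectin, which hepatocytes also make and which gave 94.2% to 96.1% of it. Trem2, a lipid receptor of recruited macrophages, had a hepatocyte value of −0.30, not exact (limma adjusted p = 0.234). Of 13 dendritic cell and MHC class II genes, 1 passed. Cd74, the invariant chain of MHC class II, which macrophages and dendritic cells share, read 6.89, 6.12 and 6.54 in WT hepatocytes and 5.47, 4.65 and 4.52 in JNKΔhepa hepatocytes. The groups did not overlap, and the log2 difference was −1.64 (SE 0.259, limma adjusted p = 0.01). The call was lost without WT hepatocyte replicates 1 (limma adjusted p = 0.0566) or 3 (0.0516) or JNKΔhepa hepatocyte replicates 2 (0.0599) or 3 (0.0606). In liver Cd74 read 8.63, 7.82 and 8.41 in WT against 8.14, 7.92 and 7.97 in JNKΔhepa.

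Other genes of macrophage pathways, taken from lists without the 32 members, were mostly short of the threshold. Of 17 transcription factors of Kupffer cells and macrophages, 0 passed in either tissue, and the median was 0.04 in hepatocytes with 8 below 0. Maf, which represses macrophage self-renewal, read 6.65, 6.25 and 6.97 in WT hepatocytes and 6.22, 5.98 and 6.16 in JNKΔhepa hepatocytes (log2 difference −0.51, limma adjusted p = 0.156). Of 14 ligands and receptors of the Kupffer cell niche 0 passed (hepatocyte median −0.25, 10 below 0). Bmp2, a ligand made by sinusoidal endothelium, had a hepatocyte value of −0.41 (limma adjusted p = 0.201). Of 14 genes of Fc receptor and DAP12 signalling 0 passed (hepatocyte median −0.33, 11 below 0), with Lcp2, an adaptor, at −0.65 (limma adjusted p = 0.169). Of 12 phagosome and lysosome genes 0 passed (median −0.07, 8 below 0), with Cyba, the partner subunit of Cybb, at −0.58 (limma adjusted p = 0.28). Of 11 iron and heme genes 0 passed (median 0.04, 3 below 0). For hepatocytes minus liver as deposited, these lists had medians of −1.15, −1.67, −1.77, −1.18 and −0.66, in this order. The median over all genes was −0.585 there. Which cells the RNA of these lists came from was not tested.

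Of 19 genes for lipopolysaccharide sensing and early macrophage cytokines, Il18 alone passed, and it rose in both tissues. Il18, a cytokine matured by the inflammasome, read 5.86, 6.06 and 6.17 in WT liver and 6.91, 7.01 and 6.71 in JNKΔhepa liver. In hepatocytes it read 5.11, 5.06 and 5.32 in WT against 6.18, 6.40 and 6.16 in JNKΔhepa. The groups were apart in both tissues, with log2 differences of 0.84 in liver (SE 0.114, limma adjusted p = 0.00383) and 1.08 in hepatocytes (SE 0.114, limma adjusted p = 0.000597). Both calls held with each array left out in turn. The list's median was −0.04 in hepatocytes, with 11 of 19 below 0.

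A further comparison set hepatocytes against whole liver. All 32 members were lower in hepatocytes past the threshold, averaged over the genotypes and within each genotype. For each of them every hepatocyte array also lay below every liver array. How many of all genes showed that order was not counted, so it is not read as particular to the members. Of all genes, 97.5% had a value below 0 in the average over the genotypes. Most genes were lower too on the values as deposited: 91.5% of all genes passed in that direction, 85.6% within WT and 85.9% within JNKΔhepa. The count is therefore read against the size: the members' median log2 difference was −2.17, against −0.585 over all genes, and each of the 32 lay below the median gene. After quantile normalisation over all arrays 22% of all genes were lower and 31 of the 32 members were. The members' median was then −1.43, against 0.02 over all genes. With each array centred on its median 12.5% of all genes were lower and again 31 members were. Here the members' median was −1.32, against 0.27 over all genes. Marco was the exception in this average over the genotypes (limma adjusted p = 0.237 under each scaling). Within each genotype 30 members were lower past the threshold under either scaling. Of all 18820 genes, 2782 in WT and 2936 in JNKΔhepa were lower after quantile normalisation, and 1852 and 1959 after centring. In WT the exceptions were Marco and Aif1 after quantile normalisation (limma adjusted p = 0.627 and 0.0565) and Marco and Fcna after centring (0.654 and 0.0908). In JNKΔhepa they were Marco and Mpeg1 under both (0.309 and 0.468, then 0.253 and 0.862), with Mpeg1 at 0.03 after centring, a turned sign.

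Spic had the largest difference under all 3 scalings. On the values as deposited it was at least 7.1-fold (log2 difference −2.83, SE 0.137, limma adjusted p = 1.61e-09), and this bound holds for that scaling only: it was at least 4.35-fold after quantile normalisation and at least 3.93-fold after centring. It read 5.19, 4.89 and 5.85 in WT liver, 5.06, 5.20 and 5.09 in JNKΔhepa liver and 2.16 to 2.65 in all hepatocytes. As deposited, after quantile normalisation and after centring, C1qc was 5.53-fold, 3.52-fold and 3.06-fold lower and Vsig4 5.52-fold, 3.72-fold and 3.05-fold. In the same order Cybb was 5.27-fold, 3.25-fold and 2.91-fold lower, Adgre1 5.18-fold, 3.17-fold and 2.87-fold, and Clec4f 4.39-fold, 2.84-fold and 2.43-fold. Among the members that were dim on 0 arrays, the smallest log2 differences as deposited were those of Mpeg1 (−1.12), Slc40a1 (−1.46) and Fcna (−1.52), which read −0.26, −0.61 and −0.67 after centring. Marco (−1.10) and Aif1 (−1.29) were dim on 8 and 12 of the 12 arrays and have no place in that order. The 16 hepatocyte genes had a median of −0.14 in the same contrast as deposited, the 18 endothelial genes one of −1.89 and the 16 stellate genes one of −2.39.

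**Figure D5:**
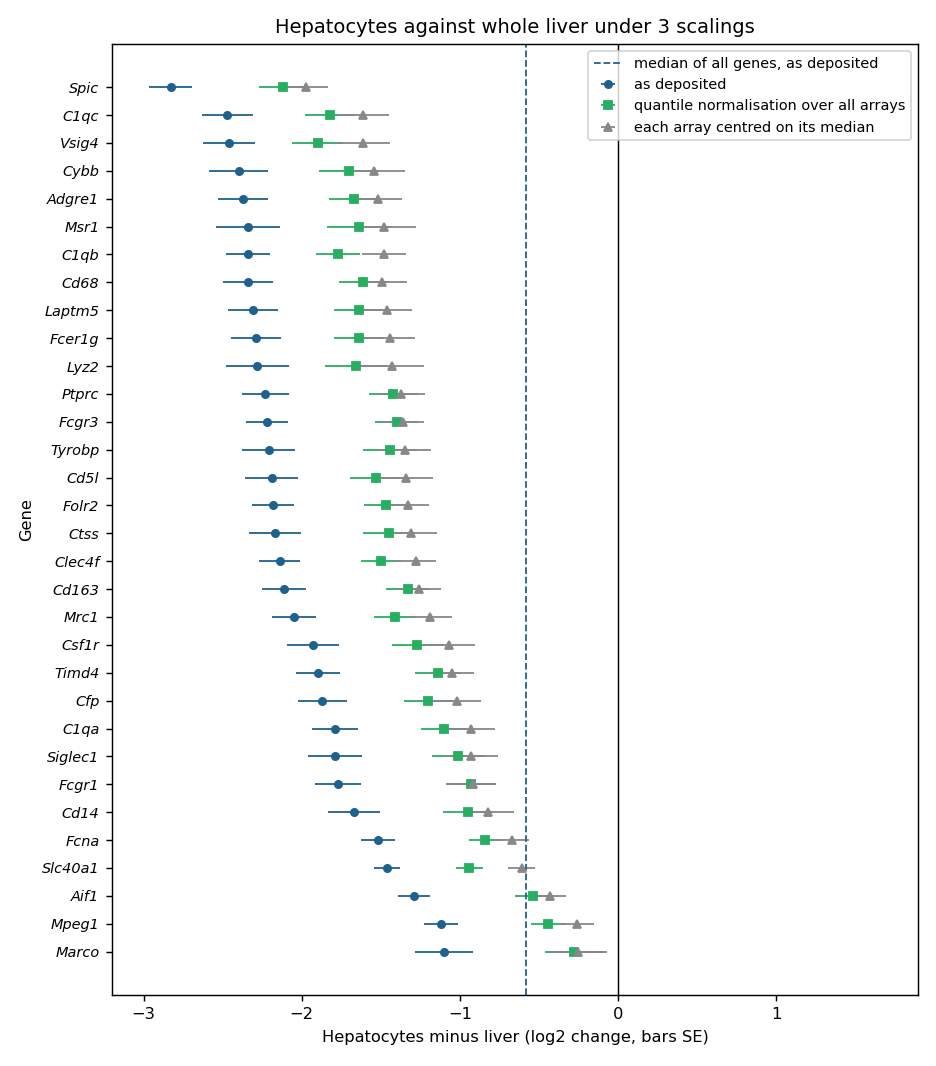
Log2 difference, hepatocytes minus liver, with its SE, for each of the 32 members under 3 scalings of the arrays, with the median of all genes as deposited (−0.585) as a dashed line. Every point lies below 0, Spic the lowest under each scaling (−2.83 as deposited), and both rescalings move every point towards 0. The median of all genes moves up as well, to 0.02 after quantile normalisation and 0.27 after centring.

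The last comparison asked whether the genotype difference itself differed between hepatocytes and liver (the interaction). None of the 32 members passed (limma), where 0.0106% of all genes did, in either direction. The median was −0.55, against −0.02 over all genes, with 29 members below 0. At an unadjusted limma p under 0.05, 11 members were lower, where 4.57% of all genes were, and Mpeg1 was higher. Of all 18820 genes, 1359 were under that limma p in either direction, 860 of them lower. Fcna had an interaction of −0.73 (95% confidence interval −1.20 to −0.27, limma adjusted p = 0.468), C1qb of −0.93 (−1.53 to −0.33, 0.474) and Mpeg1 of 0.55 (0.08 to 1.01, 0.627). The fall of C1qb and Fcna in hepatocytes is thus not shown to differ from their liver values.

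Within each mouse, the members' median fall from liver to hepatocytes was −1.53, −2.03 and −1.96 in WT mice 1, 2 and 3 and −2.18, −2.43 and −2.54 in JNKΔhepa mice 1, 2 and 3, on the log2 scale. The 3 JNKΔhepa mice were all lower than the 3 WT mice in this median, while the median over all genes ran from −0.61 to −0.58 in the 6 mice. In 15 members every JNKΔhepa mouse had a lower value than every WT mouse, as for 7.87% of all genes. They included Clec4f, C1qb, C1qc, Fcna, Fcer1g, Csf1r, Adgre1, Cd68 and Cybb. Slc40a1 was also among them, although its JNKΔhepa minus WT value was above 0 in both tissues (0.45 in liver and 0.20 in hepatocytes). C1qb was −1.68, −1.91 and −2.02 in WT against −2.68, −2.59 and −3.13 in JNKΔhepa. Cybb was −1.42, −2.07 and −2.12 in WT against −2.68, −3.09 and −3.00 in JNKΔhepa. Mpeg1 was the 1 member in the reverse order, at −1.35, −1.37 and −1.44 in WT against −1.20, −0.85 and −0.48 in JNKΔhepa. The share of all genes in this reverse order was not counted, so the order is not read as particular to Mpeg1.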

How the data were processed

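RNA of 12 samples was read on 1-colour whole-transcript arrays. The deposited values are log2, read from their range; RMA (background correction, quantile normalisation and probe set summary) is named in the submitters' processing notes, without a version, and whether it was run per tissue is not given in the sources used here. Log base, probe set definition and genome build are not given there either. Of 35556 probe sets, 21218 had 1 symbol, and the one with the highest mean stood for each of 18820 genes.

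Group means were fitted to all 12 arrays with limma (version 3.58.1, in R 4.3.3 with statmod 1.5.0; 8 residual and 4.76 prior degrees of freedom), with 4 groups, two-sided tests, no filter and Benjamini-Hochberg adjustment over all genes at 0.05. The code was tested on simulated data. Replicates are separate mice; liver and hepatocytes of a mouse are paired by the labels' mouse numbers, and their deviations correlated at −0.01 to 0.10. Alternatives were scaling, probe set choice, filter, prior, array weights, blocks, fitting fewer arrays and leaving out each array. The members and lists were chosen with earlier results of these data known, and the bound for dim readings was set by the array median. Named genes were all 32 members, Mapk8, Mapk9 and, per other list and comparison, the 3 smallest-p genes among those passing, or the 1 of smallest p where none passed; not every such gene is printed. The number of arrays limits the precision. The plots used matplotlib 3.10.9 in Python 3.11.15, with numpy 2.4.6 and pandas 2.3.3.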

Additional observations from a re-analysis of the deposited data

How the results depend on the processing

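For the genotype effect in liver, the count of members called was 0 as reported and 0 to 1 with an array left out (1 without WT liver replicate 2), and 2 with array weights. In hepatocytes it was 2 as reported, 0 to 15 with an array left out, and 0 in the 6 hepatocyte arrays alone. Counts of members between the tissues were 30 to 32 of 32 under every setting, and the interaction count was 0 under every setting. Between the tissues, Mpeg1 in JNKΔhepa turned to 0.03 (limma adjusted p = 0.862) with each array centred on its median, and no other called value of a member changed sign. The cause was not tested. The filter on dim genes kept 10724 genes and 31 members.

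Over all genes, the liver count of 174 ran from 80 to 225 with an array left out and from 110 to 408 otherwise, and the hepatocyte count of 158 from 61 to 387 and from 77 to 224. The split of tissue calls was 17225 lower and 146 higher as deposited, 4140 and 4341 after quantile normalisation, and 2349 and 11216 with arrays centred.

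With the replicate number as a block within tissue, the hepatocyte count of members was 3 and the liver count 0. By the labels, the same number stands for different mice in the genotypes. Their correlations (−0.12 to 0.11) cannot show this, because liver and hepatocytes of the same mouse correlated at only −0.01 to 0.10. With the mouse as a random block (consensus correlation 0.0487) the counts were 0, 2, 32 and 0 in liver, hepatocytes, between tissues and for the interaction, and the pairing by mouse changed no other call of a member. Without detection calls, signal over background limits the sizes of Aif1, Cd14, Marco, Spic, Fcgr1 and Fcgr3.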
